A study of Mus musculus with 2 samples.

Results

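The intronic accessible sites of the mouse thymus that lie away from promoters were examined by DNase-seq. Each was an autosomal DNase-seq peak whose midpoint fell in the body of a protein-coding gene of the GENCODE M21 annotation, that touched no annotated exon and that lay more than 1 kb from every annotated transcript start. By this rule 13,628 of 59,484 peaks of mouse 1 and 17,495 of 72,913 peaks of mouse 2 were intronic, 23.5% and 24.6% of the autosomal peaks. Peaks of this kind that overlapped between the mice by at least 1 bp formed 10,342 shared sites, and 97.9% of these consisted of 1 peak of each mouse. First introns, counted along the transcript with the most exonic bases, held 3,192 of the shared sites and later introns held 6,228. The other 922 lay in a gene body but in no intron of that transcript.

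The tissue was whole thymus of 2 female mice aged 36 days, with 1 library per mouse. The mice were B6CASTF1/J, first-generation hybrids whose parents come from C57BL/6J, a laboratory strain, and CAST/EiJ, a wild-derived one. The libraries were labelled as biological replicates 1 and 2, which is taken here to mean separate animals. They form 1 group, so no treatment, genotype or age was compared. Whole thymus is a mixture of cells, and in it fewer accessible cells and weaker accessibility in each cell cannot be told apart. Of 12 genes that mark developing T cells, all 12 had a promoter peak in both mice. That held for 2 of 5 B-cell markers, 0 of 6 myeloid and dendritic markers, 1 of 5 thymic epithelial markers and 3 of 5 mesenchymal and endothelial markers.

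DNase I cuts DNA that nucleosomes leave exposed, and a cluster of cuts marks a regulatory element such as an enhancer, a silencer or an insulator. A protein sitting on the DNA shields a few bases within such a cluster, which appears as a footprint. Introns hold many of the known regulatory elements of T-cell genes, among them the silencer in the first intron of Cd4, the gene of the co-receptor of helper T cells. First introns are also known to carry more open chromatin than other introns, since they begin at the promoter.

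The sequences of 7 shared sites are given first. Ccnd3, Gtf2ird1 and Pde4d held 3 of the 10 strongest shared sites, and Il2ra, Cd4, Bcl11b and Runx1 are genes of T-cell development with strong intronic sites. The sequences are those of the GRCm38 (mm10) reference, plus strand, 5′ to 3′. Capitals mark the bases that lay inside a footprint in both mice.
Ccnd3, chr17:47508001-47508220: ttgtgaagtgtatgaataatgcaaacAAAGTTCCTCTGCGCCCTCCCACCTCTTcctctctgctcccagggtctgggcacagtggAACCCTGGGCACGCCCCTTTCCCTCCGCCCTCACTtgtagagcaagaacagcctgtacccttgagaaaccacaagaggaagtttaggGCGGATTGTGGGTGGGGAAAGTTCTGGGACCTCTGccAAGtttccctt
Gtf2ird1, chr5:134444501-134444760: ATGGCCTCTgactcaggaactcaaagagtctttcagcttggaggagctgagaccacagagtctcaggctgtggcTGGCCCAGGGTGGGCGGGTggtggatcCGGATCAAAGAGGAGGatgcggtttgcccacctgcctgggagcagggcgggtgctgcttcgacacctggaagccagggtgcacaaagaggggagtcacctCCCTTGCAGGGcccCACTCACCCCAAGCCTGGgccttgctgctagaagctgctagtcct
Pde4d, chr13:109822421-109822700: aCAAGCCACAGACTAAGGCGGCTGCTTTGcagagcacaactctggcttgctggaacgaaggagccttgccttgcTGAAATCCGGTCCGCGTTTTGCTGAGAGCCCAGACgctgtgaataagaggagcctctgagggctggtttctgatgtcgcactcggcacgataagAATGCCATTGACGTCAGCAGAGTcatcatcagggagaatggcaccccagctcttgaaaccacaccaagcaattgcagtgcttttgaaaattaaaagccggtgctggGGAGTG
Il2ra, chr2:11664041-11664260: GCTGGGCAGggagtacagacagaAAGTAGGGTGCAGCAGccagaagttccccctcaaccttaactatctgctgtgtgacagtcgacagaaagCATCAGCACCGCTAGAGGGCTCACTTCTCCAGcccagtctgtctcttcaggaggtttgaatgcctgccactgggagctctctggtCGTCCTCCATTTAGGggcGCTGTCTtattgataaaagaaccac
Cd4, chr6:124885221-124885480: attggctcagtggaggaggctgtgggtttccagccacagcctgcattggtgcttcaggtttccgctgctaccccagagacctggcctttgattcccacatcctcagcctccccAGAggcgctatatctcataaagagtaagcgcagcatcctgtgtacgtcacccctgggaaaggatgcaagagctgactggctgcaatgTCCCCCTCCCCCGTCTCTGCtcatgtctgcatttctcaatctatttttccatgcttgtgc
Bcl11b, chr12:107928081-107928340: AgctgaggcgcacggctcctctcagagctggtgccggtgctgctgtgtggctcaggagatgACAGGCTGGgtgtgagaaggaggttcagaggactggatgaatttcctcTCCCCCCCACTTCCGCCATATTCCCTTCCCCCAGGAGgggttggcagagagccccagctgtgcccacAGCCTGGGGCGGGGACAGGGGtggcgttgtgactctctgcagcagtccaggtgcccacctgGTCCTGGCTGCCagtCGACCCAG
Runx1, chr16:92741401-92741660: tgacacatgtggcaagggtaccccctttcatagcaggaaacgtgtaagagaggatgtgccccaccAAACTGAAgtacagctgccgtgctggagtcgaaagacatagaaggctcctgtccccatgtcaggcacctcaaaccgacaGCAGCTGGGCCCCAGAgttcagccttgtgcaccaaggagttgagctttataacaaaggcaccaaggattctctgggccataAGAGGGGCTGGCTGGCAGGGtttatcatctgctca

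The 7 sites had between 23 bases (Cd4) and 101 bases (Ccnd3) inside footprints of both mice. In the Gtf2ird1 site bases 105 to 111, counted from 1 at the left end, matched the TCF1/LEF1 motif, and the match lay in a footprint of both mice. TCF1 and LEF1 are the high-mobility-group factors that drive early T-cell development. The Pde4d site held a CREB motif at bases 177 to 184 in a footprint of both mice, and the Bcl11b site an SP/KLF motif at bases 183 to 189. In the Runx1 site, bases 146 to 151 matched the E-box CAGCTG in a footprint of both mice, whereas an identical match at bases 77 to 82 lay in no footprint. The Il2ra site held none of the 20 motifs searched.

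Intronic sites were narrow and moderately GC-rich. The shared sites had a median width of 220 bp and ranged from 58 to 1,480 bp. Their median GC content was 52.5%, with an interquartile range from 49.3% to 55.8%, and they were poor in CpG, with a ratio of observed to expected CpG of 0.228. Promoter peaks, those within 1 kb of a transcript start, had a median GC content of 61.9% ± 1.31 (SD, n = 2 mice) and a CpG ratio of 0.680 ± 0.0158. Intronic peaks had a CpG ratio of 0.223 ± 0.00545 and intergenic peaks one of 0.261 ± 0.00504, so in CpG content the intronic peaks lay far closer to the intergenic peaks. Repeat-masked sequence made up 12.4% of the bases of a shared site on average, and it made up more than 50% in 481 sites.

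The deposited signal, the height that the authors gave each peak, was lower in introns than at promoters in both mice. Its median over intronic peaks was 1.01 in mouse 1 and 1.13 in mouse 2, against 1.75 and 2.72 over promoter peaks. The promoter median was thus 1.74 times the intronic one in mouse 1 and 2.40 times in mouse 2. Intergenic peaks had medians of 1.00 and 1.16, which were 0.994 and 1.02 times the intronic ones, a difference smaller than that between the mice. Within introns the first-intron median was 1.10 and 1.14 and the later-intron median 0.964 and 1.13, so that first introns were higher in mouse 1 and nearly equal to later introns in mouse 2.

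**Figure D1:**
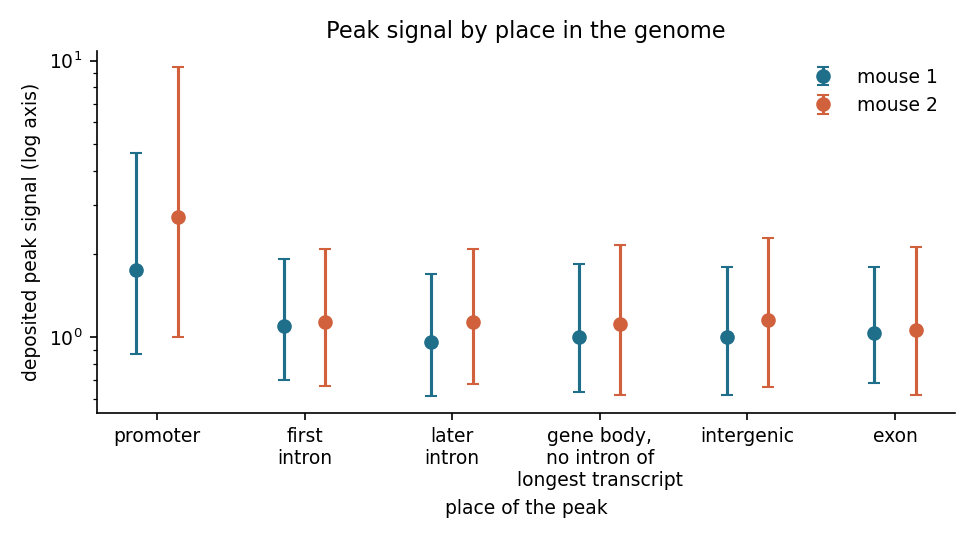
Median deposited signal of the peaks of each mouse by their place (log axis), where points are medians over peaks and bars reach from the lower to the upper quartile. Promoter peaks stand highest, at 1.75 and 2.72, and the intronic and intergenic medians all lie between 0.964 and 1.16.

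Intronic peaks were found again in the other mouse slightly less often than autosomal peaks as a whole. Of the intronic peaks of mouse 1, 77.5% overlapped any peak of mouse 2, where all autosomal peaks of mouse 1 did so in 80.9%. For mouse 2 the values were 60.9% for intronic peaks and 66.1% for all autosomal peaks. Nearly all of these partners were themselves intronic by the rule, 76.7% and 60.01% of the intronic peaks. Promoter peaks were shared in 83.3% and 74.1%, and intergenic peaks in 79.7% and 62.6%.

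Sharing rose with signal. All autosomal peaks of each mouse were put in 5 groups of equal size by signal, and intronic peaks were shared more often than promoter peaks in 4 of the 5 groups of mouse 1 and in all 5 of mouse 2. The exception was the strongest group of mouse 1, at 99.1% and 99.2%. Intergenic peaks were shared more often than intronic ones in all 5 groups of mouse 1 and in 3 of the 5 of mouse 2, so the lead over promoter peaks was not particular to introns. In the weakest group 54.8% of the intronic peaks of mouse 1 were shared, against 48.0% of the promoter peaks and 56.9% of the intergenic ones. In mouse 2 these shares were 23.7%, 20.1% and 24.9%. In the strongest group 99.1% of the intronic peaks of mouse 1 and 99.6% of those of mouse 2 were shared. That group held only 9.21% and 6.87% of all intronic peaks but 32.3% and 37.3% of the promoter peaks. The lower overall sharing of intronic than of promoter peaks went with their lower signal.

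Peaks without a partner were mostly weak, and many still lay over cutting in the other mouse. Of 3,061 intronic peaks of mouse 1 that overlapped no peak of mouse 2, 62.0% touched a run of bases that the authors listed at an FDR of at most 0.05 for the local cut rate in mouse 2. For the 6,832 such peaks of mouse 2 the share was 51.9%. Over unshared autosomal peaks of every class it was 67.8% and 53.0%, so intronic peaks lay below that in mouse 1 and close to it in mouse 2. Intron windows of the same widths, 2 kb to either side and without a peak, touched such a run in 3.73% and 2.91%. The strongest unshared intronic peak of mouse 1 lay in the first intron of Fyb, the gene of an adaptor protein of T-cell receptor signalling, at chr15:6592661-6592880. Its signal was 6.04, and a peak of the longer peak list of mouse 2 lay over it. The strongest of mouse 2 lay in intron 2 of Itpkb, at chr1:180365561-180365740, with a signal of 6.95. Itpkb encodes a kinase of inositol trisphosphate that thymocytes need for positive selection. The next 4 of mouse 1 lay in Acoxl, Rara, Padi2 and Akap13 (4.51 to 5.21), and those of mouse 2 in Coro1c, Pitpnm2, Sept9 and Dgke (5.07 to 5.37). All 10 touched significant cutting in the other mouse.

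The 1 kb limit did not fall at a break in the data. Intronic peaks just inside it, more than 1,000 and up to 1,250 bp from a transcript start, numbered 592 in mouse 1 with a median signal of 0.913. Those just outside it, 750 to 1,000 bp away and otherwise within the rule, numbered 870 with a median of 0.874. In mouse 2 there were 766 peaks inside with a median of 1.12 and 959 outside with one of 1.14. Of the shared sites 496 (4.80%) lay within 1 kb of a transcript start that the RefSeq annotation lists and GENCODE M21 does not. Their median signal was 1.42 and 1.87, above the 1.19 and 1.66 of the other sites.

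The strongest shared site, by the geometric mean of both signals, lay in the first intron of Ccnd3, which encodes cyclin D3, a cell-cycle regulator that thymocytes need for their expansion. Its signals were 25.5 and 39.1 in the mice numbered 1 and 2, and it lay 3.06 kb from the start of the gene. The second lay in Sin3a, the scaffold of a histone deacetylase co-repressor, with signals of 28.3 and 29.6, and it overlapped a RefSeq transcript start. The third lay in the gene model Gm20388 (17.0 and 41.5), the fourth in the first intron of Gtf2ird1, a factor of the TFII-I family (17.4 and 32.0). The other 6 lay in Fmnl1, a formin that builds actin filaments, Ppp1r9b, a scaffold of protein phosphatase 1, Ptpn14, a tyrosine phosphatase, Pde4d, a phosphodiesterase that breaks down cyclic AMP, Nr1d1, a nuclear receptor of the circadian clock, and Cap2, a regulator of actin. Their signals were 14.9 to 22.1 in mouse 1 and 22.5 to 29.0 in mouse 2. All 10 sites were higher in mouse 2, and 5 counted as first-intron sites. Among these was the Gm20388 site, 1,675 kb from the start of a model that spans many other genes.

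First introns held more sites for their length than later introns. The intron sequence that a site could fall in, outside exons and more than 1 kb from every transcript start, came to 190.6 Mb in first introns and 557.7 Mb in later ones. The density of intronic peaks in first introns was 22.3 per Mb in mouse 1 and 28.8 in mouse 2, against 14.6 and 18.6 per Mb in later introns. The ratio was 1.53 and 1.55 (1.54 ± 0.0136, SD, n = 2 mice). Density fell along the gene, from 25.5 ± 4.61 peaks per Mb in intron 1 to 19.3 ± 3.09 in intron 2, 17.6 ± 2.995 in intron 3, 17.2 ± 2.74 in intron 4 and 15.2 ± 2.74 in intron 5 and beyond. The step from intron 1 to intron 2 exceeded the SD between the mice and the later steps did not, but the order was the same in both mice.

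Most of this excess lay near the start of the gene. From 1 to 2 kb from the start of their own gene, first introns had 58.8 and 67.7 peaks per Mb and later introns 29.4 and 35.1, a ratio of 2.00 and 1.93. The ratio was 1.31 and 1.23 from 5 to 10 kb and 1.03 and 1.05 from 20 to 50 kb. Beyond 50 kb it was below 1, at 0.859 and 0.890 up to 100 kb and 0.888 and 0.934 farther out. Within genes whose own promoter was open in both mice, the ratio was highest nearest the start, at 1.78 and 1.80 from 1 to 2 kb, and it was 1.17 and 1.22 from 50 to 100 kb. The genes counted thus turned the direction of the comparison from 50 to 100 kb. Beyond 100 kb the values rested on Gm20388, a predicted gene model that spans many other genes and whose peaks all counted as first-intron peaks. In genes with an open promoter the ratio there was 1.24 and 1.30 with this model and 0.851 and 0.762 without it, and in all genes it was 0.583 and 0.547 without it. Leaving it out was chosen after seeing the data, and from 50 to 100 kb the ratios without it were 1.17 and 1.22 in genes with an open promoter.

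**Figure D2:**
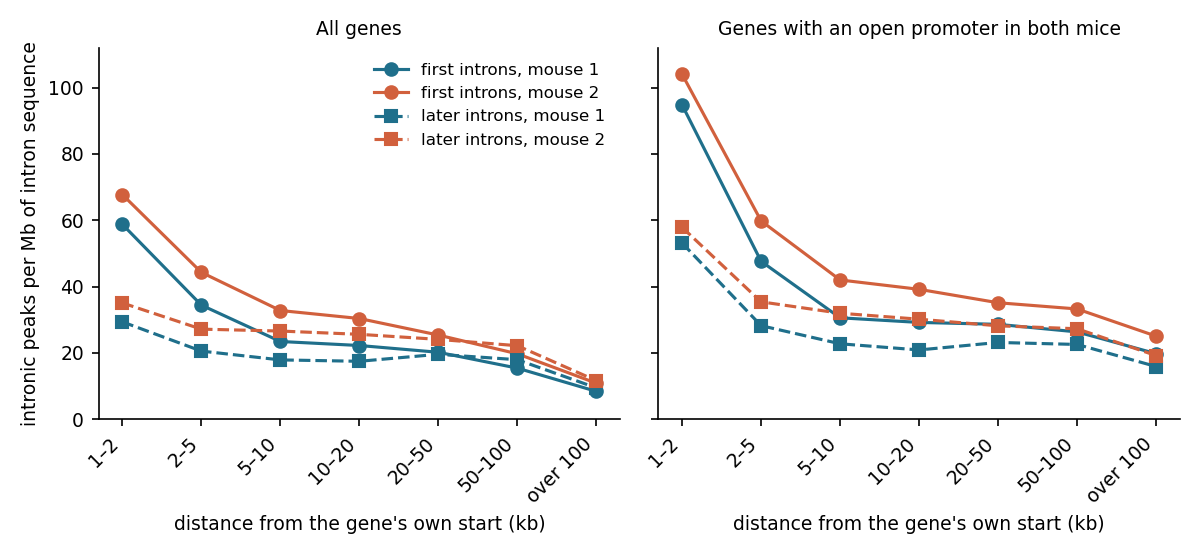
Intronic peaks per Mb of intron sequence against distance from the start of the gene they lie in (kb), for first introns (circles) and later introns (squares) of each mouse, in all genes and in genes with an open promoter in both mice. In all genes the lines for first introns start at 58.8 and 67.7 and meet those for later introns from 20 to 50 kb, and in genes with an open promoter they lie above them up to 100 kb. Beyond 100 kb both panels include the gene model Gm20388. Without it first introns lie at 5.52 and 6.38 peaks per Mb in all genes, and later introns at 9.48 and 11.65. In genes with an open promoter first introns then lie at 13.5 and 14.6 peaks per Mb and later introns at 15.9 and 19.2.

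Distance from the start of a gene was counted from its transcript with the most exonic bases, in either direction. So counted, the sites lay a median of 34.8 kb from the start of their gene. Their median distance from the nearest annotated start of any transcript was 8.13 kb. Only 642 (6.21%) lay more than 50 kb from every start. Of 6,066 pairs of neighbours within a gene, 1,840 (30.3%) were less than 2 kb apart, and the median spacing was 7.78 kb. Whether this is closer than the density of sites implies was not tested.

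The shared sites fell in 4,276 of the 18,329 autosomal protein-coding genes with intron sequence that a site could fall in (23.3%). Of these genes 2,281 had a single site, and 110 had 10 or more. Genes with an open promoter in both mice had a site in 30.8% of cases, against 8.98% of genes with a promoter open in neither mouse. Per length of intron the densities were 17.9 and 4.33 shared sites per Mb. Genes with an open promoter held 8,833 of the 10,342 sites, and 861 sites lay in genes whose own promoter had no peak in either mouse.

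The gene model with most sites was Gm20388, a predicted transcript on chromosome 8 that spans 119910841 to 124345722 and many other genes, with 82. All 82 counted as first-intron sites because of this model. A midpoint in several genes was given to the shortest, so these sites lay in no shorter protein-coding gene. Gse1 followed with 40 sites. Tbc1d22a, of the family of GTPase activators for Rab proteins, had 28. Maml3, a coactivator of Notch, and Wwox, an oxidoreductase, had 26 each. Ldlrad3 had 25, Arid1b, a subunit of the BAF chromatin remodeller, 23, Clec16a and the sorting receptor gene Sorcs2 22 each, and Msi2, an RNA-binding protein, 20. Where the sites lay differed: 18 of 26 were in the first intron in Maml3 and 16 of 22 in Sorcs2, but none of those in Wwox, Clec16a or Msi2 was.

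Among genes with at least 5 sites, the 10 densest had 6.2 to 21.5 kb of intron sequence. The median was 13.7 kb over all genes and 49.1 kb over genes with a site. A ranking per length above a fixed number of sites favours little intron sequence, and density by gene size was not tested. Mob3a, of the family of MOB kinase activators, had 9 sites in 10.7 kb of intron sequence, 8.44 per 10 kb, and Csrnp1 had 8.02 per 10 kb. Tcf7, the gene of TCF1, had 15 sites at 6.97 per 10 kb and came next after Ubxn11 (7.10). The others were Grk2, a kinase of G-protein-coupled receptors (6.20), Kcnn4, a calcium-activated potassium channel of lymphocytes (5.45), Fam78a (5.25), Setd1b, a histone H3 lysine methyltransferase (4.90), Qprt, an enzyme of NAD synthesis (4.34), and Otulinl (3.74). Over all autosomal genes the pooled density was 0.125 per 10 kb. The promoter of Qprt had no peak in either mouse, although its first intron held 5 shared sites.

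Genes of the T-cell lineage were described by 4 lists. Of 30 T-cell transcription factors with intron sequence, 25 had at least 1 shared site (83.3%), and their median was 4.5 sites per gene. Of all autosomal genes 23.3% had a site, and their median was 0. The list had 0.750 and 0.854 intronic peaks per 10 kb in mouse 1 and mouse 2, against 0.165 and 0.212 over all genes. T-cell receptor signalling genes had a site in 15 of 25 and T-cell surface receptors in 14 of 24 (58.3%), at pooled densities of 0.446 and 0.662 shared sites per 10 kb. In the list of V(D)J recombination and pre-T-cell receptor genes 5 of 11 genes had a site (45.5%). Its pooled density was 0.156 per 10 kb, near the 0.125 of all genes. Since members of the first list had a median of 69.0 kb of intron sequence and all genes one of 13.7 kb, the shares of genes are not matched for length, while the densities are per length.

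The transcription factors with most sites were Tcf7 and Rora with 15 each and Runx1 with 14. Rora, an orphan nuclear receptor, had 10 of its 15 sites in the first intron, while Tcf7 and Runx1 had none there. Ikzf1, the gene of the zinc-finger factor Ikaros, had 11 sites, and Lef1 and Bach2 had 10 each. No shared site lay in Cbfb, which encodes the partner of the RUNX factors and has 40.05 kb of intron sequence, in Satb1, a chromatin organiser of thymocytes with 47.9 kb, in Ets2, in Tcf3 or in Id2. Satb1, Cbfb and Ets2 had no intronic peak in either mouse, although their promoters were open in both. Id3 and Sox4 had no intron sequence that a site could fall in, and Id2 had only 0.51 kb.

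Among the signalling genes Fyn, a Src-family kinase, had 10 sites, Cd247, the gene of the zeta chain of the T-cell receptor complex, had 9, and the adaptor gene Grap2 had 8. All 9 sites of Cd247 lay in its first intron. Zap70, Rasgrp1, Ptpn22, Lck, Lat, Cd3e, Cd3g, Dgka and Malt1 had none. Some of these had peaks that were not shared, such as 1 in mouse 1 and 4 in mouse 2 in Rasgrp1, which encodes an activator of Ras. Lat had only 1.16 kb of intron sequence that a site could fall in. Among the surface receptors Il2ra and Ccr9 had 5 each and Notch1 and Cd44 had 4 each. Icos, Cxcr4, S1pr1, Cd69, Cd8a, Cd27, Itgal, Il7r, Cd6 and Cd5 had none. Of these Cd27, S1pr1, Cxcr4, Cd69 and Cd8a had only 0.262 to 2.11 kb of intron sequence that a site could fall in. In the recombination list Arpp21 had 4 sites and Dntt, which encodes the terminal transferase that adds bases at V(D)J joints, had 3, while Dclre1c, Xrcc6 and Prkdc had 1 each. Nhej1, Xrcc5, Rag1, Rag2, Lig4 and Ptcra had none, and Hes1 had no intron sequence that a site could fall in. Rag2 and Lig4 had only 1.55 and 1.49 kb of such sequence.

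High density was not limited to the T-lineage lists. Genes of chromatin and genome architecture had 0.388 shared sites per 10 kb, close to the 0.446 of the signalling genes and 3.10 times the density of all genes. They had a site in 11 of 19 (57.9%), led by Hdac7, a histone deacetylase of thymocytes, with 12 sites, all in its first intron. Dnmt3a, a DNA methyltransferase, had 6 and Smarca4, the ATPase of the BAF remodeller, had 5. In the housekeeping list 1 of 12 genes had a site, a single site in Snrpd3. Lists of other cell types of the thymus lay near or below all genes in density. B-cell genes had 0.0924 shared sites per 10 kb, with 3 each in Ebf1 and Syk and 1 each in Pax5, Blk and Blnk. Myeloid and dendritic genes had 0.143, with 3 in Flt3 and 1 each in Spi1, Itgam and Irf8. Thymic epithelial genes had 0.0859, with 3 in Cdh1 and 1 in Foxn1, and mesenchymal and endothelial genes had 0.137, led by Pecam1 with 4. Lists of neuronal, muscle and liver genes were taken as an outside reference. Neuronal genes had a site in 7 of 16 (43.8%), led by Nrxn3 with 4, at a density of 0.00874 per 10 kb over a median of 1,013 kb of intron sequence. Muscle genes had 0.0953 per 10 kb, led by Nebl with 7, and liver genes 0.0577, with 2 sites in Hnf4a.

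**Figure D3:**
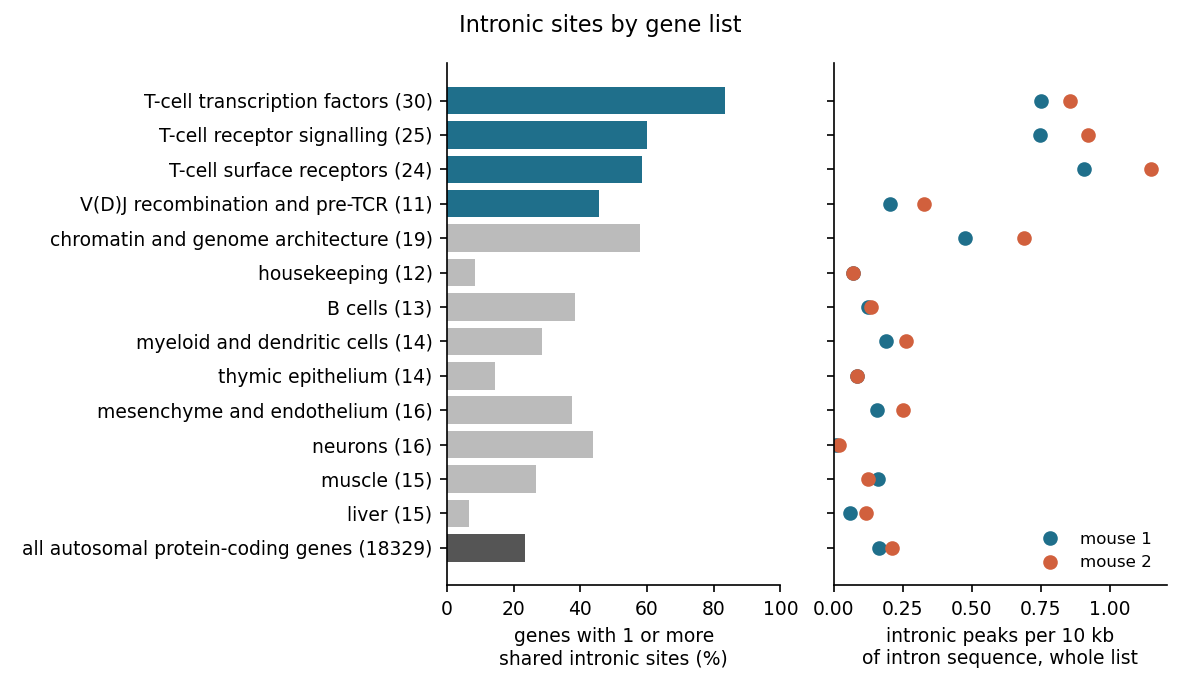
Share of the genes of each list with at least 1 shared intronic site (left, %, with the number of genes with intron sequence in brackets) and intronic peaks per 10 kb of intron sequence over the whole list in each mouse (right). T-cell transcription factors stand highest in the share of genes, at 83.3%, and T-cell surface receptors in density, at 0.905 and 1.15 per 10 kb.

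The sites of 6 T-cell genes follow with their signals in mouse 1 and in mouse 2. Cd4 had 2 shared sites in its first intron. One, at chr6:124885221-124885480, lay 2.87 kb from the start, with signals of 5.87 and 6.44, and the other, at chr6:124886001-124886380, lay 2.03 kb from it, with signals of 3.64 and 4.58. The first intron is where the Cd4 silencer is known to lie, but which bases belong to it was not taken from any file here. Il2ra encodes the alpha chain of the interleukin-2 receptor, a marker of early thymocyte stages. It had 5 sites in its first intron and no promoter peak in either mouse. Its strongest site, at chr2:11664041-11664260, lay 21.3 kb from the start, with signals of 4.87 and 11.1, and was the least alike between the mice of the 5. The weakest of them by the geometric mean had signals of 1.52 and 0.902, while another was lower in mouse 1, at 0.964.

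Runx1, which encodes a DNA-binding RUNX factor, had 13 of its 14 sites in intron 2. By the geometric mean of both signals the strongest lay at chr16:92801641-92801940, 24.4 kb from the start, with signals of 9.90 and 13.6. A site in the same intron at chr16:92741401-92741660 was higher in mouse 1, with signals of 9.97 and 10.7. Another there, at chr16:92698661-92698940, was the highest in mouse 2, with signals of 5.36 and 17.6. Bcl11b encodes a zinc-finger factor that commits cells to the T lineage. Its 9 sites had signals from 2.23 to 9.61 in mouse 1 and from 1.67 to 13.9 in mouse 2. The strongest, at chr12:107928081-107928340, lay in intron 3, 75.4 kb from the start. Other Bcl11b sites lay within 1 kb of a RefSeq transcript start, at 0.403, 0.072 and 0.104 kb. So did some sites of Tcf7 and a site of Runx1. Ets1, which encodes an ETS factor of lymphocytes, had its 2 strongest sites in intron 6, with signals of 10.5 and 15.2 at chr9:32747721-32747980 and 9.47 and 10.4 at chr9:32745981-32746240. In Tcf7 all 15 sites were in introns 2, 3, 4 or 9 and were weaker: the strongest, at chr11:52274721-52275020, had signals of 3.52 and 7.69, and 9 of the 15 were below 1 in mouse 1.

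Footprints were found in nearly all shared sites. Of the 10,342 sites, 9,804 (94.8%) overlapped a footprint of mouse 1 and one of mouse 2, and 93 overlapped none. A site had 3.33 footprints in mouse 1 and 3.30 in mouse 2 on average, with median lengths of 10 and 11 bp. Of the footprints in these sites, 60.2% of those of mouse 1 overlapped a footprint of mouse 2, and 57.9% of those of mouse 2 overlapped one of mouse 1. Among all peaks of the weakest signal group, intronic peaks carried a footprint in 80.7% in mouse 1 and 76.4% in mouse 2, against 51.8% and 63.1% of promoter peaks. Intergenic peaks of that group did so in 79.1% and 77.3%, close to the intronic share, so that at low signal promoter peaks stood apart from both. In the strongest group intronic and promoter peaks were above 99.8%.

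The 200 bases at the centre of each shared site were searched on both strands for 20 consensus motifs, and so were windows 2 kb to either side that touched no peak. The CTCF consensus, which the insulator protein CTCF binds, was the motif furthest above the flanks. It matched 723 sites (6.99%) and 6 of 18,747 flanking windows (0.0320%), a ratio of 218. EGR (GCGTGGGCG) was at a ratio of 14.5 with 16 sites and NRF1 (GCGCATGCG) at 10.5 with 29 sites, both few. SP/KLF (GGGCGGG) matched 6.20% of sites and 1.56% of flanks, and ETS (AGGAAGT) 17.5% and 4.67%. The sites had a median GC content of 52.5% in these windows and the flanks 46.5%, and the part of this difference in the ratios of GC-rich motifs was not tested.

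Motifs of other T-cell factors went both ways. The E-box CAGCTG matched 24.3% of sites and 9.81% of flanks, and the E-box CAGGTG 32.9% and 14.7%. E-boxes are bound by the E proteins of lymphocytes and their relatives. RUNX (TGTGGTT) matched 10.7% and 5.31%, and TCF1/LEF1 (CTTTGAT) 4.07% and 2.98%. The lowest ratios were those of NFAT (TGGAAAA, 0.559), the GATA motif, written AGATAA (0.694), and YY1 (AAGATGGC, 0.808), all 3 matched less often in sites than in flanks. The other motifs lay between: NF-kB (GGGANTTCC), CREB (TGACGTNA), AP-1 (TGANTCA), MYB (CAACTG), ROR (TAGGTCA), NFY (CCAATCA) and RFX (GTTGCCATG) at 1.06 to 2.86, and IKAROS (TGGGAA) at 0.854.

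Intronic sites differed from promoter peaks in the motifs that they held. ETS matched 17.5% of intronic sites and 8.49% of shared promoter sites, RUNX 10.7% and 3.94%, and CTCF 6.99% and 1.73%. SP/KLF went the other way, with 6.20% in introns and 33.1% at promoters, as did NRF1 (0.280% and 2.25%) and NFY (2.06% and 6.59%). Shared intergenic sites were much closer, with 14.8% for ETS, 9.72% for RUNX, 7.80% for SP/KLF and 9.33% for CTCF.

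To show such matches, 60 bases of the reference are given around the match in the strongest shared site that held each motif inside a footprint of both mice. These sites were chosen after their values were seen. The sequences are on the plus strand, 5′ to 3′, and capitals mark bases in footprints of both mice. The match lies at bases 24 to 37 for CTCF, 28 to 34 for ETS and RUNX, and 28 to 33 for the E-box.
CTCF match in Agrp, chr8:105622543-105622602: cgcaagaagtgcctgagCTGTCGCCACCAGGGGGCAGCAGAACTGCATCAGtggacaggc
ETS match in Ifitm10, chr7:142354112-142354171: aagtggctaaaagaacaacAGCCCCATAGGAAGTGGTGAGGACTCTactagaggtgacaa
RUNX match in Ccr9, chr9:123754502-123754561: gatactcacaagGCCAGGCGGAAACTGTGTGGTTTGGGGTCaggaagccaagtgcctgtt
E-box CAGGTG match in Colq, chr14:31556105-31556164: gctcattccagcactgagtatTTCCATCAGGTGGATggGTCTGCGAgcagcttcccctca

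These 4 sites had signals in mouse 1 and mouse 2 of 10.6 and 22.2 (Agrp), 14.6 and 11.9 (Ifitm10), 15.7 and 14.5 (Ccr9) and 15.7 and 23.9 (Colq). Ccr9 encodes a chemokine receptor of thymocytes. In the CTCF example the footprint common to both mice spanned the whole match and bases on both sides of it.

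How often a match lay in a footprint differed widely between motifs. Footprints covered 19.1% of the searched bases of the sites in mouse 1 and 22.2% in mouse 2. CTCF matches had their centre in a footprint in 90.4% and 99.0% of cases, NRF1 matches in 89.4% and 93.6%, and SP/KLF matches in 63.9% and 75.2%. TCF1/LEF1 matches did so in 58.5% and 43.6%, far above the share of bases, and CREB matches in 63.4% and 57.0%. RUNX matches were in a footprint in 26.6% and 26.9%. ETS matches, frequent as they were, lay in a footprint in only 14.8% and 15.3%, below the share of bases in both mice, and so did AP-1 matches (9.80% and 12.3%) and GATA matches (14.2% and 13.2%).

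**Figure D4:**
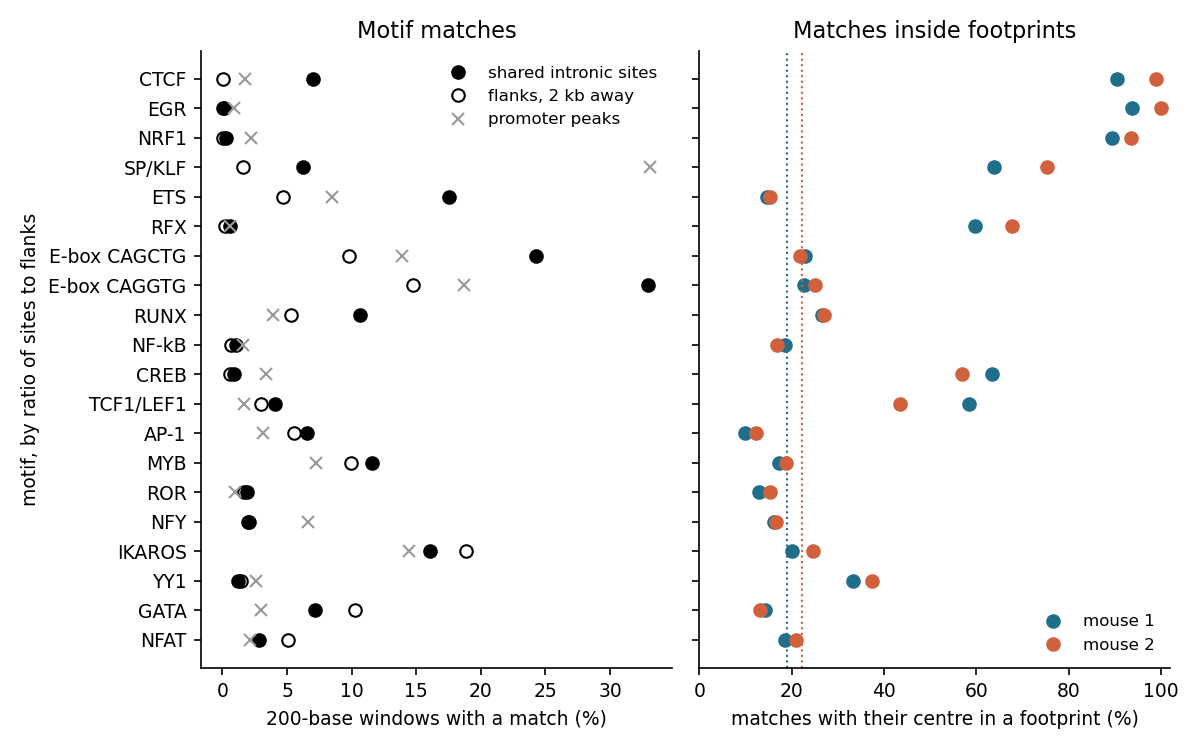
Left, share of 200-base windows with a match to each motif (%) in shared intronic sites, flanks 2 kb away and shared promoter sites. Right, share of the matches in intronic sites with their centre in a footprint of each mouse (%), with dotted lines at the share of all searched bases in footprints (19.1% and 22.2%); CTCF lies near the right end, at 90.4% and 99.0%, and ETS below the lines.

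CTCF matches were rarer in first introns than in later ones, with 126 of 3,192 sites (3.95%) against 521 of 6,228 (8.37%). The share rose with the number of the intron, from 5.43% in intron 2 to 6.84% in intron 3, 7.82% in intron 4 and 10.4% in intron 5 and beyond. At like distances from the start of the gene the share was lower in first introns from 2 kb on: it was 5.29% and 8.10% from 2 to 5 kb, 3.79% and 10.1% from 10 to 20 kb and 3.11% and 8.15% from 50 to 100 kb. Beyond 100 kb it was 7.49% in first introns and 7.62% in later ones, on 14 and 137 matches, and without Gm20388 the first-intron share there was 6.60%, on 7 matches. From 1 to 2 kb there were 7 matches in 356 first-intron sites and 0 in 42 later-intron sites. ETS matches showed no such gradient, at 18.2% in first introns and 17.3% in later ones, nor did RUNX matches, at 10.7% and 10.4%.

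The signals of the 10,342 shared sites ran in parallel between the mice, with a Pearson correlation of 0.783 of their log2 values and a Spearman correlation of 0.743 across sites, which share 2 libraries and are not replicates. Mouse 2 was higher at 7,448 sites (72.0%), and the median log2 ratio of mouse 2 over mouse 1 was 0.39. This ratio moved with GC content. Among the sites lowest in GC (up to 48.5%), 1 of 5 groups of equal size, it was 0.03, and in the highest group (56.5% and more) it was 0.74, with 94.5% of sites higher in mouse 2. The part of base composition in the differences between the mice was not tested further.

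Sites with a CTCF match departed from the others in opposite directions in the 2 mice. In mouse 1 their median signal was 0.849, against 1.24 for sites without a match. In mouse 2 it was 2.09, against 1.63. Of these 723 sites 97.1% were higher in mouse 2, and their median log2 ratio was 1.36, against 0.34 for the rest. CTCF sites were not richer in GC, with a median of 51.8% against 52.5%, and within each of the 5 groups by GC the ratio of CTCF sites was higher, at 1.02 against -0.06 in the lowest group and 1.66 against 0.70 in the highest.

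Sites with an ETS, RUNX or TCF1/LEF1 match leaned the other way. The median log2 ratio of mouse 2 over mouse 1 was 0.20 at sites with an ETS match and 0.44 at the others, 0.07 with a RUNX match and 0.43 without, and 0.01 with a TCF1/LEF1 match and 0.40 without. Motifs of other T-cell factors did not all do so. Some leaned the same way: the ratio was 0.15 with a GATA match and 0.41 without, and 0.19 and 0.39 for ROR. The E-boxes did so by less, at 0.33 and 0.41 for CAGCTG and 0.32 and 0.43 for CAGGTG. MYB and NFAT were nearly level, at 0.37 and 0.39 each. IKAROS leaned as CTCF did (0.46 and 0.38), and so did SP/KLF (0.64 and 0.37), NRF1 (0.74 and 0.39) and YY1 (0.63 and 0.39). In each of the 5 groups by GC the ratio was lower with the ETS, RUNX or TCF1/LEF1 match than without. In mouse 1 the sites with an ETS match had a median signal of 1.41, against 1.16 without, but in mouse 2 the values were 1.58 and 1.68. RUNX sites gave 1.47 against 1.18 in mouse 1 and 1.56 against 1.68 in mouse 2. The mice thus ranked intronic sites by motif differently, and with 1 library per mouse a difference between the animals and one between the libraries cannot be told apart.

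**Figure D5:**
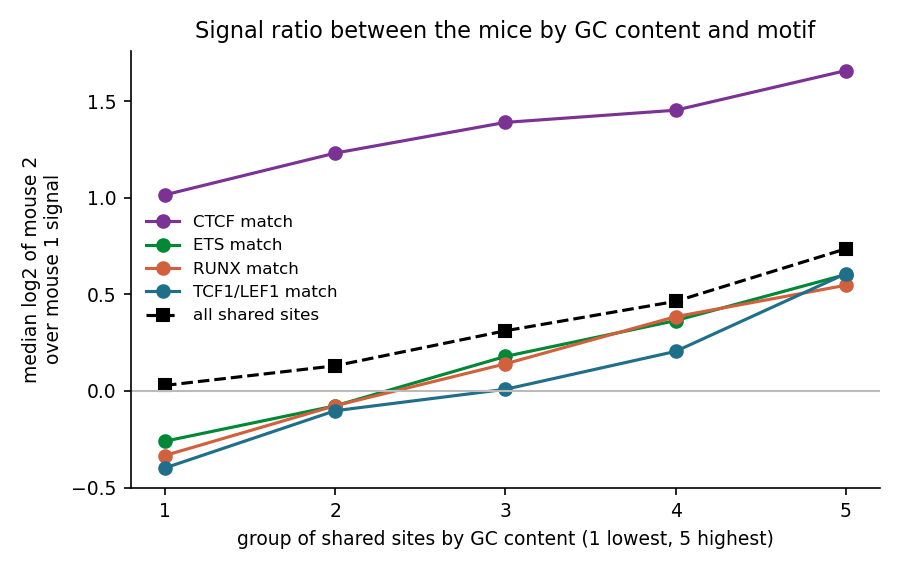
Median log2 ratio of the signal of mouse 2 over that of mouse 1 at shared intronic sites, in 5 groups of equal size by GC content, for all sites and for sites with a match to CTCF, ETS, RUNX or TCF1/LEF1. All lines rise with GC; CTCF sites lie above all sites in every group (1.02 to 1.66) and the other motifs below them.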

How the data were processed

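DNase-seq peaks, cut-rate runs and footprints of 1 thymus library from each of 2 mice were used as deposited, on mm10. The file headers list each library's own filtered alignments as the source of its peaks and cut rates. The aligner, the callers and their settings are not named in the labels or headers used here. The deposited signal column holds the authors' peak height on a scale that they do not name, so depth is unknown and no counting interval is given. The authors' deposited p-value column for cut rates is an FDR of at most 0.05. Footprint files hold only a constant value that the authors deposited, and their positions were used. The shorter of the 2 peak lists of each library was analysed.

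Classes, introns, sharing, motifs and gene densities were computed with Python 3.11.15, numpy 2.4.6, pandas 2.3.3 and bedtools 2.31.1 from GENCODE M21 and GRCm38. A gene body shared by several genes was given to the shortest. The start of a gene, in all distances from it, is that of its transcript with the most exonic bases, and sites upstream of it count too. An open promoter is a peak within 1 kb of any start of that gene. The methods were tested on simulated peaks and sequences, and member counts were checked with bedtools. Peaks that overlap within a list were merged before overlaps were counted.

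The members, the 13 gene lists (243 genes, 237 autosomal) and the 20 motifs were chosen with earlier results of these data known. Named are the 10 strongest shared sites, the 5 strongest peaks per mouse that were not shared, the 10 genes with most sites and the 10 densest with at least 5, per list the 3 members with most sites and for T-lineage lists those with none, and the sites of Cd4, Il2ra, Runx1, Bcl11b, Ets1 and Tcf7. Other list members named were added after their values were seen. A gene counted in a list is not reported here. Both libraries form 1 group, so no test between groups was possible, and values are given per mouse or as mean ± SD. Alternatives were another peak list, start distance, signal limit, overlap, exon set and transcript, and each mouse alone.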

Additional observations from a re-analysis of the deposited data

Results flagged for a closer look

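The X chromosome lies outside the comparisons above. It held 250 intronic peaks of mouse 1 and 288 of mouse 2 by the same rule, which formed 166 shared sites in 91 genes. The median signals of these intronic peaks, shared or not, were 0.686 and 0.861, below the medians of 1.01 and 1.13 over autosomal intronic peaks. The strongest shared site was in Mid1, with signals of 61.2 and 137. The peak lists of these female mice also held 31 peaks on the Y chromosome in mouse 1 and 36 in mouse 2, and their source was not tested.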

How the results depend on the processing

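No paired analysis was possible because both mice belong to 1 group. Of 108 alternative values of the 12 main results, 70 moved by less than the spread between the mice or not at all, and 38 by more. For counts the limit was 1.5 times. For CTCF shares and log2 ratios it was an interval over sites, which takes sites as independent although they share 2 libraries. A change of direction was looked for only in the log2 ratio, which kept its sign. Some of the 70 could not move. The transcript of longest span changes only the placement in introns. The overlap rule does not enter the density ratio or the ratio of promoter to intronic signal. For these ratios each mouse alone lies within the spread by arithmetic. With the longer peak list there were 16,911 shared sites, 31.4% in first introns, a first-to-later density ratio of 1.57, a median signal of 0.953, footprints in both mice in 85.8%, a log2 ratio of 0.30, CTCF matches in 5.90% and a median of 3 sites per T-lineage gene. With the strongest 50% of peaks these became 4,239, 34.4%, 1.69, 2.79, 98.7%, 0.37, 4.79% and 1, with 2,094 genes holding a site. More than 2.5 kb from every start, 28.0% lay in first introns and the ratio was 1.37. Placed by the transcript of longest span the values were 32.9% and 1.495, and compared within bins of distance the ratio was 1.14. A reciprocal overlap of 50% gave 30.4% in first introns and footprints in 95.9%. Each mouse alone gave 13,628 to 17,495 sites, 31.2% to 31.4% in first introns, a median signal of 1.01 to 1.13, footprints of that mouse in 91.2%, CTCF matches in 5.71% to 6.44% and a median of 3 sites per T-lineage gene, against 10,342, 30.9%, 1.44, 94.8%, 6.99% and 2. Alternatives chosen after seeing the data gave 30.4% in first introns without gene models named Gm and digits, 30.1% without sites near a RefSeq start, 9,861 sites, 30.8% in first introns and CTCF matches in 7.18% without sites over 50% repeat-masked, and a density ratio of 1.52 without Gm20388 and of 1.67 in genes with an open promoter in both mice. Searching whole sites in place of 200 bases moved 14 of 20 motif shares by more than such an interval over sites. The median site was 220 bp wide, so in many sites more bases were searched. The causes were not tested.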
